A study of Mus musculus with 15 samples.

Results

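The lysosome and autophagy genes described here are 36 listed mouse genes that encode lysosomal hydrolases and membrane proteins, sterol and ion transporters, subunits of the proton pump of the lysosome, the MiT/TFE transcription factors and autophagy proteins. Each gene was read through 1 probe set, the one that carried that single gene symbol and had the highest mean over 15 arrays. The list of genes is one of pathway membership, with no measured value as a criterion. It was chosen with earlier results of these data known. Of the 36 genes, 35 had such a probe set among 18193 genes in all. Cd63 was not analysed here. The arrays came from whole subcutaneous tumors grown from PDA30364, a single C57BL/6-based pancreatic ductal adenocarcinoma line derived from a tumor of a genetically engineered mouse. All hosts were C57BL/6-Ly5.1 mice of 6 to 12 weeks with an intact immune system, and tumors were taken on day 26 after inoculation. The 4 Ctrl tumors had received vehicle and control antibody, the 4 CD40 tumors vehicle and agonist anti-CD40, the 3 MEKi tumors the MEK inhibitor GDC-0623 at 30 mg/kg daily and control antibody, and the 4 MEKi+CD40 tumors both agents. Mice were injected with antibody on days 3, 5 and 7 of treatment, with a last dose 1 day before the tumors were taken. The comparisons ask how inhibition of the MEK/ERK pathway and stimulation of antigen-presenting cells, alone and together, change transcription in the tumor.

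Lysosomes are acidic organelles in which hydrolases break down proteins, glycans and lipids that arrive by endocytosis, phagocytosis or autophagy. A proton pump, the V-ATPase, keeps the lumen acidic, and autophagy delivers cytoplasmic cargo inside double-membraned vesicles. TFEB, TFE3 and MITF are helix-loop-helix factors that bind an extended E-box in the promoters of many lysosomal genes, and their entry into the nucleus is controlled by phosphorylation, by kinases that include mTORC1 and ERK. An array reads transcript amounts and gives no view of that phosphorylation or of autophagic flux. Pancreatic carcinoma cells are known for high lysosomal and autophagic activity, and macrophages are also rich in lysosomal hydrolases.

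The promoter windows are shown because the members that carry the letters of the extended E-box did not move in a single direction. RefSeq windows from 250 bases before to 50 bases after the annotated start were available for 31 of the 36 genes (build GRCm38.p6). The letters TCACGTGA, which contain the shorter E-box CACGTG and read the same on both strands, occurred in windows of 5 of these 31 genes (16.1%), against 1.12% of 27025 genes. CACGTG alone or within the longer word occurred in 11 of the 31 genes (35.5%), against 8.09% of all genes. Among 104 other lysosome and autophagy genes with a window, 11 held TCACGTGA (10.6%) and 24 held CACGTG (23.1%). The higher shares are therefore not particular to the members. A match describes the letters of the window and is not a measured binding site. The stretches around TCACGTGA are given 5′ to 3′ on the strand of the gene, with TCACGTGA in capitals. They lie at chr2:164833730-164833814 (plus strand) for Ctsa, at chr7:142387889-142387956 (minus strand) for Ctsd, at chr8:3500443-3500510 (plus strand) for Mcoln1, at chr8:105566031-105566098 (minus strand) for Atp6v0d1 and at chrX:134601163-134601255 (minus strand) for Gla.
Ctsa: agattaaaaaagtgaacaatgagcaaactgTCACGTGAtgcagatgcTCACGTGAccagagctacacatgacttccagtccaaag
Ctsd: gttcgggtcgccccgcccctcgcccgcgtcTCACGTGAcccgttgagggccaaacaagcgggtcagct
Mcoln1: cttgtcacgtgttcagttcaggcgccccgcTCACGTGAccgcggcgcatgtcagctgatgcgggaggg
Atp6v0d1: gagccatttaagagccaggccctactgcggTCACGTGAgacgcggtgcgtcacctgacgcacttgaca
Gla: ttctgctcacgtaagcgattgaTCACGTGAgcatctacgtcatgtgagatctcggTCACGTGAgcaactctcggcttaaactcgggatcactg
Ctsa and Gla each held 2 copies in the window shown. Another annotated Ctsa window, at chr2:164832622-164832921, held neither TCACGTGA nor CACGTG. Ctsa and Ctsd read higher in MEKi+CD40 than in Ctrl tumors, Gla and Mcoln1 read lower in MEKi than in Ctrl tumors, and Atp6v0d1 passed the test in no comparison, with the values given below.

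The array medians lay between 5.16 and 5.24 on the log2 scale of robust multichip averaging (RMA), and no pair of arrays correlated below 0.969 over all probe sets. Of 12 transcripts that report ERK output, 9 passed an adjusted p of 0.05 as lower in MEKi+CD40 than in Ctrl, and 3 in MEKi (limma). Over all genes 8.72% and 10.4% fell in the same comparisons. The median log2 differences of the 12 were -0.56 and -0.09, and none passed upward. The 8 keratin and other epithelial tumor cell markers averaged between 9.52 and 10.59 in every tumor. Their group mean was 9.81 in Ctrl and 10.40 in MEKi, and 1 of the 8 passed upward against Ctrl in each inhibitor group. Among them Epcam averaged 8.12 in Ctrl, 8.53 in CD40, 10.94 in MEKi and 10.15 in MEKi+CD40. MEKi replicate 1 stood apart from the other MEKi tumors. It was the highest of the 3 for 25 of the 35 members and averaged 11.1 for 8 skeletal muscle markers and 9.76 for 15 macrophage markers, against 8.11 and 8.36 and against 8.68 and 9.10 in the others. Tumor numbers in the labels fall into 2 series. All 4 MEKi+CD40 tumors are numbered under 10000, all 3 MEKi tumors from 10000 on, and Ctrl and CD40 hold both, 3 and 1 tumors for Ctrl and 2 and 2 for CD40. The sources used here do not give the meaning of the series. The difference between MEKi+CD40 and MEKi cannot be told apart from it.

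In MEKi+CD40 tumors 10 of 21 hydrolase and membrane genes were higher than in Ctrl tumors and 3 of 5 autophagy genes were lower, while in MEKi tumors Sqstm1, Gla, Asah1 and Mcoln1 were lowest. Against Ctrl, 10 of 35 members rose (28.6%) and 5 fell (14.3%) in MEKi+CD40, where 10.3% of all genes rose and 8.72% fell at an adjusted p under 0.05 (limma, Benjamini-Hochberg over all probe sets). The median log2 difference of the members was 0.085, against -0.04 over all genes. In MEKi 3 members rose (8.57%) and 5 fell (14.3%), while 10.7% of all genes rose and 10.4% fell. The median log2 difference of the members in MEKi was -0.10, against -0.04 over all genes. Arrays of MEKi and Ctrl did not overlap for 9 members upward and 11 downward, against 16.4% and 19.3% of all genes. For MEKi+CD40 and Ctrl these were 11 and 6 members, against 12.3% and 14.4% of all genes. The members were brighter than most genes, as 34 of the 35 had a mean over all arrays above 6.69, the median of all genes. No comparison with genes of similar signal was made. The shares of all genes, here and below, therefore do not show how often equally bright genes were called. Both comparisons share the Ctrl tumors. In whole tumors, fewer cells of a type and less RNA per cell cannot be told apart.

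**Figure D1:**
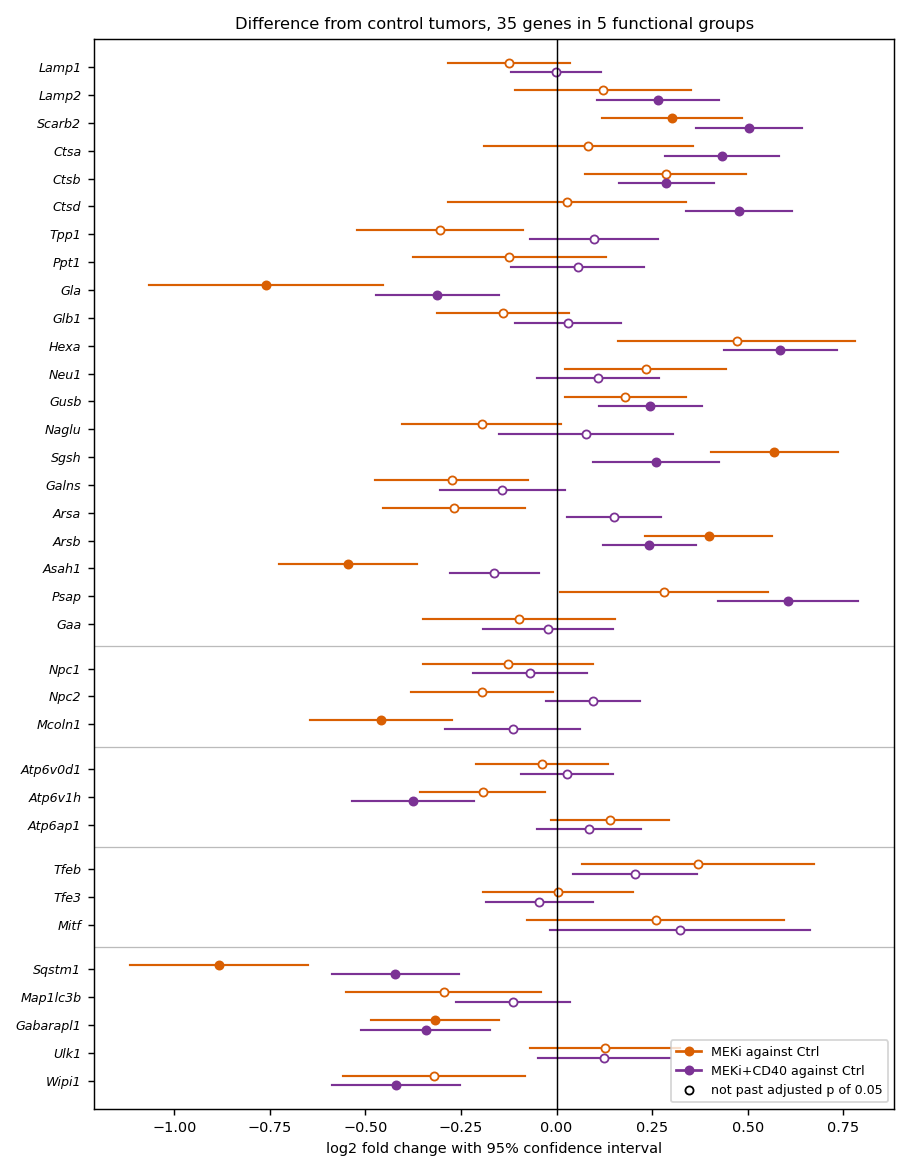
Log2 fold change from Ctrl tumors (x axis) with its 95% confidence interval for the 35 measured members (y axis, in 5 functional groups divided by grey lines), in MEKi (orange) and MEKi+CD40 (purple); filled points passed an adjusted p of 0.05. In the uppermost group 10 of 21 purple points are filled to the right of 0, whereas Sqstm1 has the lowest point in both colors.

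Psap encodes prosaposin, the precursor of the saposins that present sphingolipids to hydrolases. Its log2 signal was 11.66, 11.75, 11.63 and 11.66 in Ctrl, 11.89, 11.76, 11.90 and 11.95 in CD40, 12.25, 11.75 and 11.87 in MEKi and 12.16, 12.42, 12.13 and 12.41 in MEKi+CD40. Every MEKi+CD40 tumor was above every Ctrl and CD40 tumor, and MEKi replicate 1 lay within the MEKi+CD40 range. The log2 difference of MEKi+CD40 from Ctrl was 0.60 ± 0.082 (SE, adjusted p = 0.00151).

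Hexa, the alpha subunit of beta-hexosaminidase, which degrades gangliosides, read 10.19, 10.23, 10.16 and 10.11 in Ctrl, 10.48, 10.17, 10.30 and 10.40 in CD40, 11.00, 10.41 and 10.52 in MEKi and 10.74, 10.72, 10.67 and 10.90 in MEKi+CD40. Both groups with the inhibitor lay above all Ctrl tumors. The log2 difference from Ctrl was 0.58 ± 0.066 in MEKi+CD40 (adjusted p = 0.000649) and 0.47 ± 0.14 in MEKi, where it did not pass (adjusted p = 0.0503). Without MEKi replicate 1 the MEKi difference was 0.29 and passed (adjusted p = 0.0374).

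Scarb2 encodes a membrane protein that carries glucocerebrosidase to the lysosome. It read 10.31, 10.32, 10.27 and 10.36 in Ctrl, 10.42, 10.31, 10.52 and 10.51 in CD40, 10.76, 10.57 and 10.52 in MEKi and 10.70, 10.82, 10.84 and 10.91 in MEKi+CD40. The order of the group means was Ctrl, CD40, MEKi and MEKi+CD40, and neighbours in that order overlapped. It rose in both inhibitor groups, by 0.50 ± 0.062 in MEKi+CD40 (adjusted p = 0.000941) and by 0.30 ± 0.079 in MEKi (adjusted p = 0.037). The MEKi call was lost without MEKi replicate 1 (log2 difference 0.23, adjusted p = 0.0675).

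The cathepsin genes were higher in MEKi+CD40 than in Ctrl tumors as well. Ctsd, which encodes an aspartic protease, read 11.07, 11.07, 11.05 and 11.06 in Ctrl, 11.11, 11.15, 11.17 and 11.24 in CD40, 11.46, 10.90 and 10.91 in MEKi and 11.53, 11.61, 11.41 and 11.61 in MEKi+CD40. The MEKi tumors lay on both sides of the Ctrl values. The log2 difference from Ctrl was 0.48 ± 0.062 in MEKi+CD40 (adjusted p = 0.00121) and 0.03 ± 0.14 in MEKi (adjusted p = 0.918). Ctsa, the serine carboxypeptidase that protects beta-galactosidase and neuraminidase, read 9.82, 9.81, 9.75 and 9.90 in Ctrl and 10.28, 10.31, 10.11 and 10.31 in MEKi+CD40, with no overlap, a log2 difference of 0.43 ± 0.067 (adjusted p = 0.00287). Ctsb, a cysteine protease, rose by 0.29 ± 0.055 (adjusted p = 0.00815), from a highest Ctrl value of 11.99 to a lowest MEKi+CD40 value of 12.19. In MEKi its difference was also 0.29, with a larger error (SE 0.092, adjusted p = 0.0721), and MEKi replicate 1 read 12.47 against 12.16 in both others.

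Sgsh and Arsb encode sulfatases of heparan sulfate and dermatan sulfate breakdown. Sgsh read 6.73, 6.63, 6.82 and 6.78 in Ctrl, 6.51, 6.61, 6.89 and 6.85 in CD40, 7.33, 7.29 and 7.31 in MEKi and 6.99, 7.00, 6.87 and 7.14 in MEKi+CD40. It was highest in MEKi, with all MEKi tumors above those of the other groups. The log2 difference from Ctrl was 0.57 ± 0.072 in MEKi (adjusted p = 0.00199) and 0.26 ± 0.073 in MEKi+CD40 (adjusted p = 0.0432). Arsb read 8.50 to 8.57 in Ctrl, 8.35 to 8.65 in CD40, 9.04, 8.85 and 8.93 in MEKi and 8.73 to 8.85 in MEKi+CD40. Its log2 difference from Ctrl was 0.40 ± 0.072 in MEKi (adjusted p = 0.00874) and 0.24 ± 0.054 in MEKi+CD40 (adjusted p = 0.0167), but a dimmer Arsb probe set went the other way, at -0.38 in MEKi and -0.25 in MEKi+CD40 (adjusted p = 0.0346 and 0.0352).

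The remaining members that rose in MEKi+CD40 were Lamp2, a major lysosomal membrane glycoprotein (0.27 ± 0.071, adjusted p = 0.0353), and Gusb, or beta-glucuronidase (0.24 ± 0.06, adjusted p = 0.0246). Their MEKi+CD40 tumors did not overlap with Ctrl, at 11.23 to 11.47 against 11.00 to 11.12 for Lamp2 and at 10.28 to 10.44 against 10.06 to 10.16 for Gusb.

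**Figure D2:**
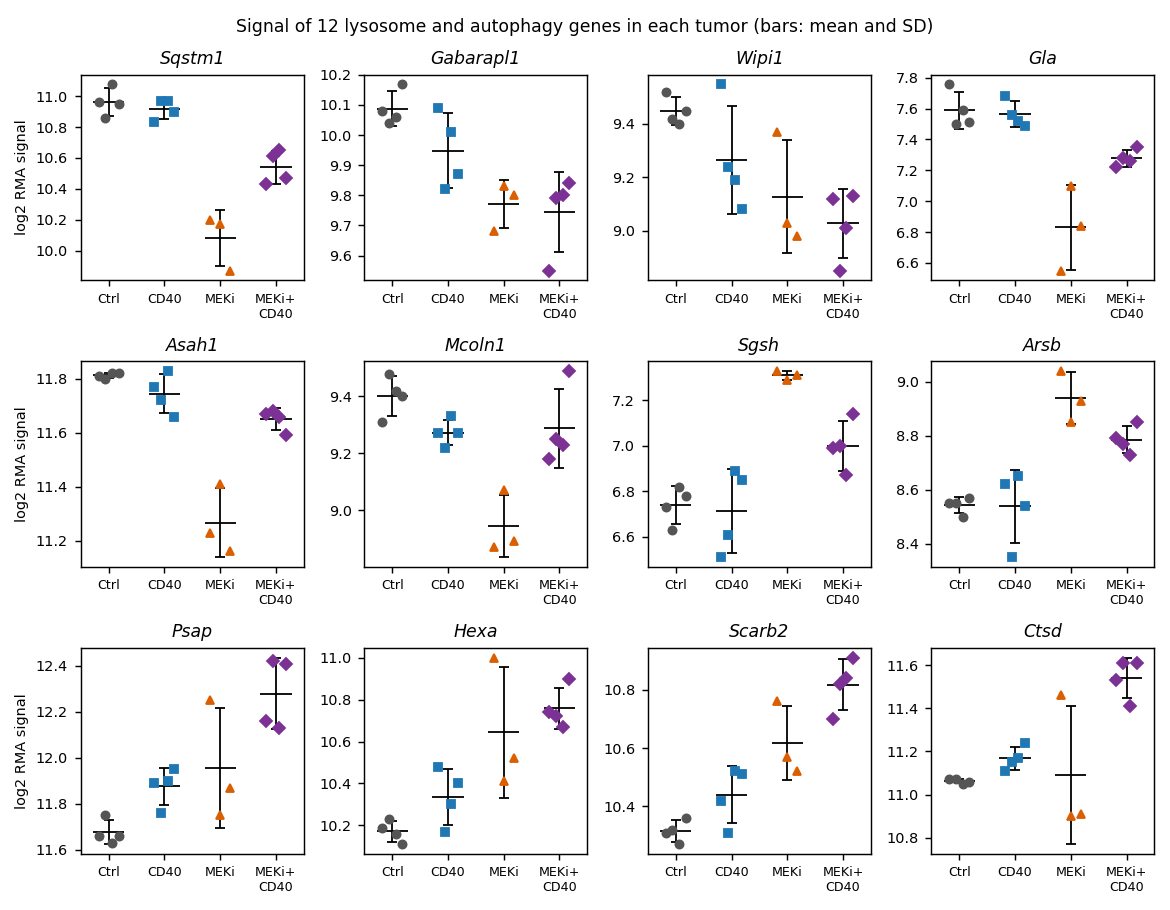
Log2 RMA signal (y axis, own scale in each panel, not starting at 0) of 12 members in each of the 15 tumors by treatment group (x axis); points are tumors, lines and bars the mean and SD. The upper row and Asah1 and Mcoln1 sit lowest in an inhibitor group, and Psap, Hexa, Scarb2 and Ctsd sit highest in MEKi+CD40.

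Gla and Asah1, hydrolases of sphingolipids, were lower with the inhibitor. Gla encodes alpha-galactosidase, which removes galactose from globosides. It read 7.76, 7.50, 7.59 and 7.51 in Ctrl, 7.68, 7.56, 7.52 and 7.49 in CD40, 6.55, 7.10 and 6.84 in MEKi and 7.22, 7.28, 7.26 and 7.35 in MEKi+CD40. The inhibitor groups lay below both groups without it and did not overlap with each other. The log2 difference from Ctrl was -0.76 ± 0.13 in MEKi (adjusted p = 0.00743) and -0.31 ± 0.072 in MEKi+CD40 (adjusted p = 0.0189). Asah1, acid ceramidase, read 11.81, 11.80, 11.82 and 11.82 in Ctrl, 11.77, 11.72, 11.83 and 11.66 in CD40, 11.23, 11.41 and 11.16 in MEKi and 11.67, 11.68, 11.66 and 11.59 in MEKi+CD40. It was lowest in MEKi, with a log2 difference from Ctrl of -0.55 ± 0.078 (adjusted p = 0.00327), and in MEKi+CD40 it differed by -0.16 ± 0.052, which did not pass (adjusted p = 0.0665).

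Arsa, described with the antibody comparisons, and 8 other hydrolase and membrane genes passed in neither inhibitor group against Ctrl. The 8 were Lamp1, Tpp1, Ppt1, Glb1, Neu1, Naglu, Galns and Gaa. The MEKi differences of these 8 ran from -0.31 for Tpp1, a tripeptidyl peptidase, to 0.23 for Neu1, a sialidase. Their MEKi+CD40 differences ran from -0.14 for Galns, a sulfatase of keratan sulfate breakdown, to 0.11 for Neu1. Lamp1, the most used marker of the lysosomal membrane, averaged 12.16 ± 0.034 (SD) in Ctrl, 12.15 ± 0.049 in CD40, 12.03 ± 0.078 in MEKi and 12.15 ± 0.034 in MEKi+CD40. Its 95% interval for MEKi+CD40 against Ctrl was -0.12 to 0.12. Without MEKi replicate 1, Tpp1 (log2 difference -0.40, adjusted p = 0.0147) and Arsa (-0.34, adjusted p = 0.0191) passed against Ctrl in MEKi.

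Among the transporters, Mcoln1 encodes the lysosomal calcium channel mucolipin. It read 9.31, 9.48, 9.42 and 9.40 in Ctrl, 9.27, 9.22, 9.33 and 9.27 in CD40, 8.87, 9.07 and 8.89 in MEKi and 9.18, 9.25, 9.23 and 9.49 in MEKi+CD40. All MEKi tumors lay below all other tumors. The log2 difference of MEKi from Ctrl was -0.46 ± 0.081 (adjusted p = 0.00763) and that of MEKi+CD40 was -0.12 ± 0.079 (adjusted p = 0.379). Npc1 and Npc2, which together export cholesterol from the lysosome, passed in no comparison. Npc2 averaged 11.99 ± 0.037 (SD) in Ctrl and 11.79 ± 0.14 in MEKi, a log2 difference of -0.20 that passed only without MEKi replicate 1 (-0.26, adjusted p = 0.0495). Npc1 averaged between 7.38 in MEKi and 7.52 in CD40.

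The V-ATPase members differed from each other. Atp6v1h, subunit H of the cytosolic sector of the pump, read 9.70, 9.54, 9.59 and 9.61 in Ctrl, 9.62, 9.50, 9.55 and 9.49 in CD40, 9.38, 9.39 and 9.48 in MEKi and 9.07, 9.28, 9.31 and 9.28 in MEKi+CD40. Every MEKi+CD40 tumor lay below every tumor of the other groups, and the log2 difference from Ctrl was -0.38 ± 0.071 (adjusted p = 0.00776). Atp6v0d1, part of the membrane sector, and the accessory subunit gene Atp6ap1 passed in no comparison, with group means of 10.37 to 10.46 and of 10.56 to 10.72.

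Tfeb, Tfe3 and Mitf, the MiT/TFE factors among the members, passed in none of the 6 comparisons. Tfeb read 7.05, 7.01, 6.88 and 6.83 in Ctrl, 6.85, 6.73, 6.91 and 7.05 in CD40, 7.64, 7.15 and 7.15 in MEKi and 7.15, 7.25, 7.05 and 7.14 in MEKi+CD40. All MEKi tumors lay above all Ctrl tumors, with a log2 difference of 0.37 ± 0.13 (95% interval 0.07 to 0.67, adjusted p = 0.0982). Over all genes 16.4% separated upward in the same comparison. Tfe3 averaged between 8.44 and 8.49 in all groups. Mitf averaged 6.40 ± 0.14 (SD) in Ctrl, 6.54 ± 0.22 in CD40, 6.66 ± 0.31 in MEKi and 6.72 ± 0.33 in MEKi+CD40, a spread as large as its differences. Mitf is also the lineage factor of melanocytes, and 2 of 8 melanocyte markers rose in MEKi against Ctrl, with list means of 4.74 to 4.86 in MEKi and 4.25 to 4.53 in Ctrl tumors. These were the pigment enzyme genes Dct (1.47 ± 0.30, adjusted p = 0.0142) and Tyrp1 (1.24 ± 0.22, adjusted p = 0.00796), while tyrosinase, Tyr, averaged 3.62 in MEKi and 3.33 in Ctrl tumors. In MEKi+CD40, where Mitf averaged highest, the melanocyte list means were 4.14 to 4.24 and no melanocyte marker passed against Ctrl. The part of melanocytes in the Mitf values was not tested.

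Every autophagy member that passed in an inhibitor group against Ctrl fell. Sqstm1 encodes the sequestosome receptor, which binds ubiquitinated cargo and is itself degraded by autophagy. It read 10.96, 10.86, 11.08 and 10.95 in Ctrl, 10.83, 10.97, 10.97 and 10.90 in CD40, 10.20, 10.17 and 9.87 in MEKi and 10.43, 10.61, 10.65 and 10.47 in MEKi+CD40. The MEKi tumors were lowest and the MEKi+CD40 tumors lay between them and the groups without inhibitor, with no overlap. The log2 difference from Ctrl was -0.88 ± 0.10 in MEKi (adjusted p = 0.00131), which is the largest decrease among the 35 members, and -0.42 ± 0.074 in MEKi+CD40 (adjusted p = 0.00527). A dimmer Sqstm1 probe set gave -1.30 and -1.04.

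Gabarapl1, a ubiquitin-like protein of the growing autophagosome, read 10.08, 10.04, 10.06 and 10.17 in Ctrl, 10.09, 9.82, 10.01 and 9.87 in CD40, 9.68, 9.83 and 9.80 in MEKi and 9.55, 9.79, 9.80 and 9.84 in MEKi+CD40. Both inhibitor groups lay below Ctrl and overlapped with each other and with CD40. The log2 differences from Ctrl were -0.32 ± 0.073 in MEKi (adjusted p = 0.0224) and -0.34 ± 0.075 in MEKi+CD40 (adjusted p = 0.0156). Wipi1, a phosphoinositide-binding protein of the phagophore, read 9.52, 9.42, 9.40 and 9.45 in Ctrl, 9.55, 9.24, 9.19 and 9.08 in CD40, 9.37, 9.03 and 8.98 in MEKi and 9.12, 8.85, 9.01 and 9.13 in MEKi+CD40. It differed from Ctrl by -0.42 ± 0.074 in MEKi+CD40 (adjusted p = 0.00552) and by -0.32 ± 0.10 in MEKi (adjusted p = 0.0733). Map1lc3b, another ubiquitin-like protein of the autophagosome, and Ulk1, the kinase that starts autophagy, passed in no comparison. Map1lc3b averaged 11.37 ± 0.082 (SD) in Ctrl and 11.07 ± 0.22 in MEKi, and Ulk1 averaged 7.51 ± 0.082 in Ctrl and 7.63 ± 0.12 in both inhibitor groups. Without MEKi replicate 1, Wipi1 and Map1lc3b also passed in MEKi against Ctrl, at -0.44 (adjusted p = 0.00625) and -0.39 (adjusted p = 0.0445).

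Other probe sets bear on these calls. In MEKi+CD40 against Ctrl, 13 of the 15 called members had 25 further probe sets, of which 22 pointed the same way and 9 passed. The second Psap and Scarb2 probe sets gave 0.64 and 0.59, and the second Gabarapl1 probe set gave -0.46. When the probe sets of a gene were averaged, Arsb no longer passed in either inhibitor group, and Lamp2, Gla, Sgsh and Atp6v1h no longer passed in MEKi+CD40. In MEKi against Ctrl the count of 8 called members rose to 13 without MEKi replicate 1, to 14 when dim probe sets were left out and to 15 in 1 fit of all 15 arrays. The fit with the tumor number series as a covariate also used all 15 arrays, so its like is the fit that called 15. With the covariate 6 of the 8 passed and Gabarapl1 (-0.35, adjusted p = 0.0554) and Scarb2 (0.22, adjusted p = 0.145) did not. Among tumors numbered from 10000 on, 3 MEKi tumors against 1 Ctrl tumor are too few for a test, and the differences were -0.87 for Sqstm1, -0.68 for Gla, -0.55 for Asah1, -0.46 for Mcoln1, -0.40 for Gabarapl1, 0.53 for Sgsh, 0.37 for Arsb and 0.26 for Scarb2. In MEKi+CD40 against Ctrl 13 members passed among tumors numbered under 10000 (4 against 3).

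After anti-CD40 alone, none of 35 members passed in CD40 against Ctrl, where 1.01% of all genes rose and 0.0495% fell, and 1 of 35, Psap, was under an unadjusted p of 0.05 (limma). Psap was 0.20 ± 0.063 higher (95% interval 0.06 to 0.34, adjusted p = 0.273). All CD40 tumors lay above all Ctrl tumors for 2 of 35 members, against 4.69% of all genes. These were Psap, with a lowest CD40 value of 11.76 and a highest Ctrl value of 11.75, and Ctsd (11.11 against 11.07). The members ranged from -0.18 for Wipi1 to 0.20 for Psap, and no 95% interval reached beyond -0.40 or 0.39.

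In MEKi+CD40 against MEKi 1 of 35 members passed, Arsa, where 1.38% of all genes rose and 2.65% fell. The antibody and the tumor number series cannot be told apart in this comparison. In a fit of all 15 arrays with the series as a covariate, the Arsa difference was 0.39 and did not pass (limma, adjusted p = 0.0986). Arsa, which removes sulfate from sulfatide, read 9.24, 9.20, 9.27 and 9.24 in Ctrl, 9.27, 9.11, 9.26 and 9.02 in CD40, 9.11, 8.96 and 8.84 in MEKi and 9.36, 9.40, 9.33 and 9.46 in MEKi+CD40. The MEKi+CD40 tumors were above all others. They exceeded MEKi by 0.42 ± 0.085 (adjusted p = 0.0451), whereas Asah1 (0.38 ± 0.081, adjusted p = 0.0519) and Sqstm1 (0.46 ± 0.11, adjusted p = 0.0651) did not pass. Arsa kept its call in 1 of the 7 fits with a tumor left out, without MEKi replicate 1, and its difference stayed between 0.35 and 0.49. The count of 1 became 5 without MEKi replicate 1 and 2 without MEKi replicate 2, was 0 without MEKi replicate 3 or without any single MEKi+CD40 tumor, and was 9 in 1 fit of all 15 arrays. The 5 genes without MEKi replicate 1 were Ctsd (0.64), Ctsa (0.49), Tpp1 (0.49), Arsa (0.49) and Sqstm1 (0.52).

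Whether the antibody acted differently with and without the inhibitor was tested as the difference between MEKi+CD40 minus MEKi and CD40 minus Ctrl, in 1 fit of all arrays. It was above 0 for 4 members and below 0 for none, while 2% of all genes passed upward and 2.56% downward. The values were 0.51 ± 0.12 for Sqstm1 (adjusted p = 0.0363), 0.49 ± 0.11 for Arsa (adjusted p = 0.0223), 0.47 ± 0.11 for Mcoln1 (adjusted p = 0.0302) and 0.45 ± 0.091 for Asah1 (adjusted p = 0.016). In each of these the antibody difference was below 0 without MEKi (-0.04, -0.07, -0.13 and -0.07 in the same order) and above 0 with it (0.46, 0.42, 0.34 and 0.38). With the tumor number series as a covariate the values were 0.52, 0.46, 0.51 and 0.46 in the same order, with larger errors (SE 0.127 to 0.169), and none passed (adjusted p = 0.171 to 0.23). The count was 1 without MEKi replicate 3, 2 without Ctrl replicate 3, Ctrl replicate 4, CD40 replicate 2 or CD40 replicate 4, and 6 without MEKi replicate 1, which added Ctsd and Tpp1.

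**Figure D3:**
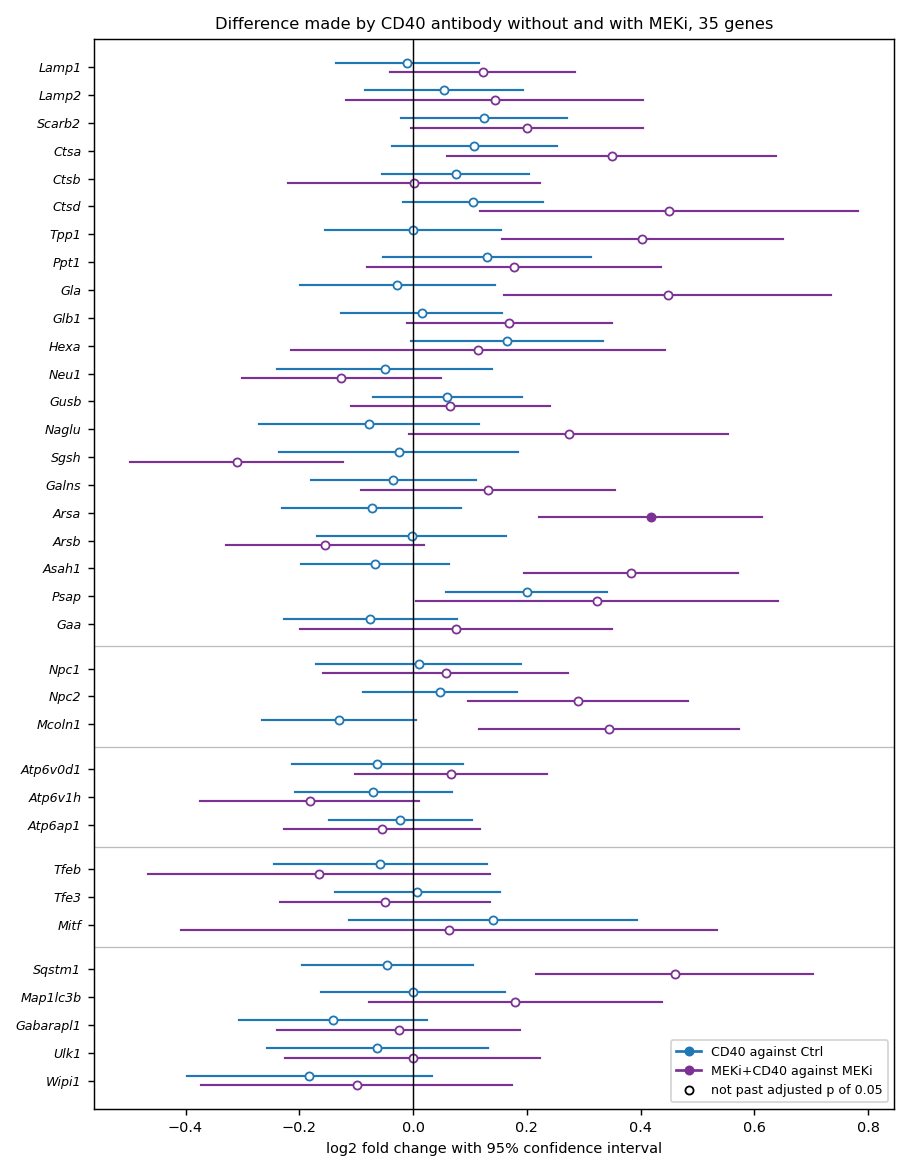
Log2 fold change between tumors with and without anti-CD40 (x axis) with its 95% confidence interval for the 35 members (y axis). Blue is without MEKi (CD40 against Ctrl) and purple with it (MEKi+CD40 against MEKi). The purple differences cannot be told apart from the tumor number series. Filled points passed an adjusted p of 0.05. All blue points lie between -0.18 and 0.20 and Arsa is the filled purple point.

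Adding MEKi to anti-CD40 gave 5 members that rose and 3 that fell, where 3.69% of all genes rose and 2.52% fell. Hexa (0.42 ± 0.084, adjusted p = 0.027), Psap (0.41 ± 0.087, adjusted p = 0.0345), Scarb2 (0.38 ± 0.073, adjusted p = 0.0241), Ctsd (0.37 ± 0.067, adjusted p = 0.0184) and Ctsa (0.33 ± 0.072, adjusted p = 0.0382) were higher in MEKi+CD40 than in CD40 tumors. Sqstm1 (-0.38 ± 0.072, adjusted p = 0.0224), Atp6v1h (-0.30 ± 0.072, adjusted p = 0.0469) and Gla (-0.28 ± 0.065, adjusted p = 0.0418) were lower. No arrays overlapped between the groups for any of these 8 genes. Among the 35 members arrays did not overlap for 10 upward and 3 downward, against 7.26% and 10.1% of all genes. The count of 8 was 0 without CD40 replicate 2 or MEKi+CD40 replicate 4, and 1 to 4 without any other single tumor except MEKi+CD40 replicate 3 (6). Among the tumors numbered under 10000 (4 against 2) none passed, with differences of 0.43 for Hexa, 0.46 for Psap, 0.45 for Scarb2, 0.41 for Ctsd, 0.39 for Ctsa, -0.36 for Sqstm1, -0.33 for Atp6v1h and -0.34 for Gla.

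The wider pathway was read through 121 measured genes of 134 listed. In MEKi+CD40 against Ctrl 21 of them rose (17.4%, against 10.3% of all genes) and 8 fell (6.61%, against 8.72%). In MEKi 11 rose (9.09%, against 10.7%) and 18 fell (14.9%, against 10.4%). Of 12 further lysosomal proteases, 7 rose in MEKi+CD40, led by Ctsh (1.28 ± 0.10, adjusted p = 0.000149) and Ctss (1.07 ± 0.085, adjusted p = 0.000153), a protease of antigen-presenting cells. In MEKi 3 rose and 1 fell, led by Ctsk, a collagen-degrading cathepsin of osteoclasts and fibroblasts (2.27 ± 0.19, adjusted p = 0.000331), and Ctsh (1.48 ± 0.12, adjusted p = 0.000305). Ctsk was lower in MEKi+CD40 than in MEKi tumors (-1.70 ± 0.23, adjusted p = 0.0102).

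Of 16 further glycosidases, sulfatases and lipid hydrolases, 7 rose and 1 fell in MEKi+CD40, with Acp5, the tartrate-resistant phosphatase of macrophages and osteoclasts, at 1.27 ± 0.08 (adjusted p = 5.28e-05) and the ganglioside activator Gm2a at 0.66 ± 0.076 (adjusted p = 0.000697). In MEKi 3 rose and 2 fell, with Galc, galactosylceramidase, at -0.91 ± 0.098 (adjusted p = 0.00103) and Manba, beta-mannosidase, at 0.56 ± 0.069 (adjusted p = 0.00183). Of 16 further membrane proteins, 3 rose in MEKi+CD40, with Laptm5, a membrane protein of blood cells, at 0.96 ± 0.11 (adjusted p = 0.000749) and Cd68, a macrophage glycoprotein, at 0.93 ± 0.10 (adjusted p = 0.000533). In MEKi 2 fell, the cystine exporter Ctns (-0.67 ± 0.10, adjusted p = 0.00435) and Cln3 (-0.58 ± 0.095, adjusted p = 0.00562).

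Of 40 further autophagy genes, 9 fell and 2 rose in MEKi, and 5 fell and none rose in MEKi+CD40. Atg14, a subunit of the phosphoinositide kinase complex that starts the phagophore, differed from Ctrl by -0.83 ± 0.091 in MEKi (adjusted p = 0.00113), and Wdr45, a relative of Wipi1, differed by -0.47 ± 0.067 in MEKi+CD40 (adjusted p = 0.00197). None of 17 other V-ATPase subunit genes passed in MEKi+CD40 against Ctrl, and 1 fell in MEKi (Atp6ap2, -0.32 ± 0.086, adjusted p = 0.0409). Of 8 genes of mannose 6-phosphate sorting, 3 rose and 1 fell in each inhibitor group, among them the sorting receptor Igf2r at 0.88 ± 0.15 in MEKi (adjusted p = 0.0068) and Sort1, sortilin, at 0.82 ± 0.071 in MEKi+CD40 (adjusted p = 0.000201). Of 12 genes that regulate MiT/TFE factors or belong to the family, 2 fell in MEKi, Fnip1 (-0.79 ± 0.16, adjusted p = 0.0151) and its partner folliculin, Flcn (-0.50 ± 0.14, adjusted p = 0.0435). In MEKi+CD40 Tfec, a family member of macrophages, was higher (0.99 ± 0.21, adjusted p = 0.0134) and Fnip1 lower (-0.47 ± 0.12, adjusted p = 0.0242).

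Fewer genes of the wider list passed in the other comparisons. Against Ctrl 3 rose in CD40 (2.48%, against 1.01% of all genes). They were Ctss (0.59 ± 0.09, adjusted p = 0.0274), Laptm5 (0.56 ± 0.095, adjusted p = 0.0368) and Acp5 (0.41 ± 0.065, adjusted p = 0.03). MEKi+CD40 against MEKi had 7 that rose (5.79%, against 1.38% of all genes) and 1 that fell (0.826%, against 2.65%). MEKi+CD40 against CD40 had 10 that rose (8.26%, against 3.69%) and 4 that fell (3.31%, against 2.52%). The interaction was above 0 for 8 (6.61%, against 2% of all genes) and below 0 for none (against 2.56%). The largest were Galc (0.86 ± 0.16, adjusted p = 0.00999) and Cd68 (0.70 ± 0.17, adjusted p = 0.0365). The interaction contains the difference between MEKi+CD40 and MEKi, which cannot be told apart from the tumor number series.

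Markers of other cell types moved with these groups. The 21 hydrolase and membrane members averaged 9.66 ± 0.014 (SD) in Ctrl, 9.69 ± 0.06 in CD40, 9.66 ± 0.10 in MEKi and 9.84 ± 0.063 in MEKi+CD40. The 15 macrophage markers averaged 8.82 to 9.06 in Ctrl, 9.33 to 9.59 in CD40, 8.68 to 9.76 in MEKi and 9.25 to 9.86 in MEKi+CD40. Against Ctrl 11 of them rose and 1, Mrc1, fell in MEKi+CD40, 7 rose in CD40, and 1 rose and 1 fell in MEKi. The 5 autophagy members averaged 9.87 ± 0.034 in Ctrl, 9.79 ± 0.018 in CD40, 9.54 ± 0.13 in MEKi and 9.64 ± 0.05 in MEKi+CD40. Fibroblast markers averaged 9.39 to 9.69 in Ctrl, 11.4 to 12.1 in MEKi and 10.1 to 10.6 in MEKi+CD40, and all 8 rose in MEKi. Skeletal muscle markers averaged 4.35 to 7.46 in Ctrl, 8.11 to 11.1 in MEKi and 8.45 to 10.3 in MEKi+CD40, and 9 skin and hair markers averaged 4.92 to 6.94, 7.14 to 8.10 and 4.82 to 5.81 in the same groups. Granulocyte markers averaged 5.84 to 6.39 in Ctrl, 7.52 to 8.07 in MEKi and 6.93 to 7.40 in MEKi+CD40, with 5 of 6 higher in each inhibitor group. T cell markers averaged 5.38 to 5.78 in Ctrl and 6.54 to 7.57 in MEKi+CD40, where 5 of 6 rose, and mast cell markers averaged 5.36 to 5.79 in Ctrl and 6.31 to 7.12 in MEKi, where 4 of 6 rose. The part of these cell types in the differences of the members was not tested.

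**Figure D4:**
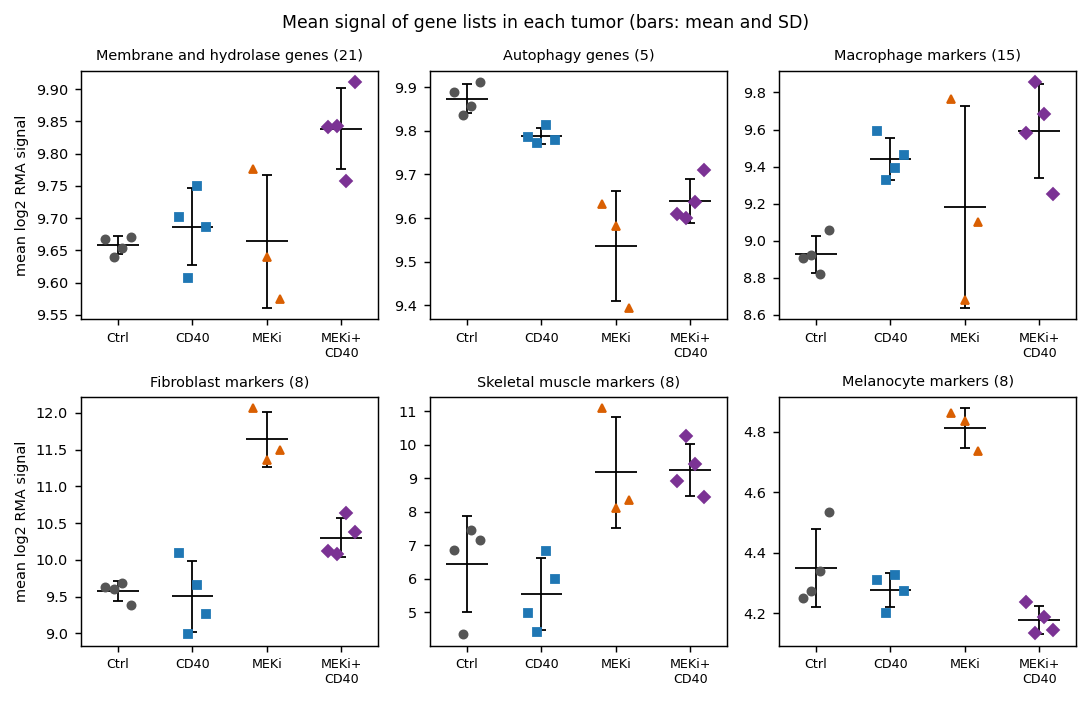
Mean log2 RMA signal (y axis, own scale in each panel, not starting at 0) of 6 gene lists in each tumor by treatment group (x axis); points are tumors, lines and bars the mean and SD, and the number of genes is in each title. Macrophage markers are higher in CD40 and MEKi+CD40 than in Ctrl tumors, fibroblast markers are highest in MEKi, and the autophagy members are lower in both inhibitor groups.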

How the data were processed

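RNA of 15 whole tumors was hybridized to Affymetrix mouse expression arrays, 1 array per tumor. The deposited values are log2 signals that the authors normalized by robust multichip averaging. Of 45101 probe sets, 64 controls were left out and 45037 were fitted. Platform annotation gave 34945 probe sets 1 symbol, 932 several and 9160 none, and names came only from the first kind. Each comparison was fitted in limma 3.58.1 (R 4.3.3), the pairwise ones on the arrays of both groups and the interaction on all 15, with lmFit and eBayes and Benjamini-Hochberg adjustment over all probe sets at 0.05. Errors are SE unless given as SD, and array number limits precision. On simulated data with 200 probe sets changed by 1 on the log2 scale, 79.5% (interaction) to 92.5% (CD40 against Ctrl) were recovered among 45037. Between 8 and 11 unchanged probe sets were also called. The largest member difference was -0.88 (Sqstm1, MEKi against Ctrl), so these shares do not apply to differences of the size seen in the members. Members and lists were chosen with earlier results of these data known. For each comparison up to 8 members with the largest differences among those that passed with arrays that did not overlap were named, with up to 2 genes for each further list, and other genes named were chosen after their values were seen. Alternatives covered the samples in the fit, variance prior, array weights, quantile normalization, centring, dim and cross-matching probe sets, the value per gene, thresholds, replicate number, tumor number series and each replicate left out. Fits with the series as covariate used all 15 arrays, so their pairwise counts are to be set beside those of 1 fit of all arrays. Within-series fits were added after seeing the data. Promoter windows came from RefSeq (GRCm38.p6).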

Additional observations from a re-analysis of the deposited data

Results flagged for a closer look

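Single tumors stood apart from the other 3 of their group for 5 of 105 groups of 4 looked at, which is close to the 1 in 20 that chance gives. Ctsa read 10.11 in MEKi+CD40 replicate 3 (others 10.28 to 10.31) and Atp6v1h read 9.07 in MEKi+CD40 replicate 1 (others 9.28 to 9.31). Npc1 read 7.34 in MEKi+CD40 replicate 1 (others 7.47), Ctsb 11.94 in Ctrl replicate 4 (others 11.99) and Npc2 11.93 in Ctrl replicate 1 (others 12 to 12.01). The response to anti-CD40 differed between tumors with and without MEKi for Sqstm1 (0.51), Arsa (0.49), Mcoln1 (0.47) and Asah1 (0.45, log2 interaction values in limma), and the MEKi and MEKi+CD40 tumors cannot be told apart from the tumor number series.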

How the results depend on the processing

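No called member changed direction when a replicate was left out or the probe sets of its gene were averaged. Ctsa and Ctsd, not called in MEKi against Ctrl (0.08 and 0.03), were at -0.06 and -0.16 without MEKi replicate 1. CD40 against Ctrl had 0 members called under all alternatives. For MEKi against Ctrl (8 members called) the count was 15 in 1 fit of all arrays, 14 without dim probe sets, 4 with a log2 difference of at least 0.5, 0 among tumors numbered from 10000 on (3 against 1, too few for a test), and 6 to 13 with 1 replicate left out. For MEKi+CD40 against Ctrl (15) it was 9 at an adjusted p under 0.01, 3 with the difference of at least 0.5, and 12 to 15 with 1 replicate left out. For MEKi+CD40 against MEKi (1) it was 9 in 1 fit of all arrays, 3 with the intensity trend and robust prior, with array weights and with the mean over probe sets, 2 with quantile normalization, without dim probe sets and with 1 probe set per gene, 0 under both stricter thresholds and with the series as covariate, and 0 to 5 with 1 replicate left out. For MEKi+CD40 against CD40 (8) it was 0 under both stricter thresholds, 5 with the series as covariate, 0 among tumors numbered under 10000 (4 against 2), and 0 to 6 with 1 replicate left out. For the interaction (4) it was 0 at an adjusted p under 0.01, 1 with the difference of at least 0.5, 0 with the series as covariate, and 1 to 6 with 1 replicate left out. Replicate numbers were not taken as pairs in the main fits. Of 21 same-numbered pairs of arrays, 5 had deviations that correlated above 0.1 (range -0.36 to 0.24). Pairs with different numbers were not compared, so this check cannot exclude pairing. With the replicate block the counts were 4 for MEKi against Ctrl, 13 for MEKi+CD40 against Ctrl, 0 against MEKi, 1 against CD40 and 2 for the interaction. The causes of these changes were not tested.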
